A study of Oncorhynchus gorbuscha with 76 samples.

Results

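The 4 genes described here, crlf1a, slc6a18, apof and fzd8a, were picked by name, out of 40756 genes in the count tables, because of their high values in the testis of spawning pink salmon (Oncorhynchus gorbuscha). Their testis values are therefore given as a description without a test, and tests are given only for ovary, head kidney and muscle. The study sequenced poly(A)-enriched RNA from 28 male and female fish, taking gonads, head kidney or muscle, which gave 76 libraries. The labels place each fish at 1 of 3 points of the return migration, named ocean, river and spawning, and give no age or strain. Testis was sampled from 5 ocean, 5 river and 5 spawning males, and ovary from 4 ocean, 4 river and 5 spawning females. Head kidney, the blood-forming and cortisol-producing organ of fish, came from 4 fish of each sex at each stage. Muscle came from 4 fish at each stage in females, and from 4 ocean, 5 river and 3 spawning males. The stage is the only condition the labels give, and no allele or agent is named. The titles number the fish within a stage, and p-values below measure the spread between these fish.

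Slc6a18 is a sodium-dependent carrier of neutral amino acids, best known from the brush border of the mammalian kidney tubule, where it needs the small membrane protein collectrin to reach the cell surface. Apof, apolipoprotein F, is a plasma apolipoprotein that in humans is made mainly in the liver and modulates lipid transfer between lipoproteins. Fzd8 is a Frizzled receptor, the cell surface protein that binds Wnt ligands and passes their signal to beta-catenin or to other routes. A maturing salmon testis fills with germ cells that become sperm, while Sertoli cells nurse the germ cells and Leydig cells make androgens.

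Levels are given as CPM, that is expected counts scaled per unit of the library size after trimmed-mean (TMM) scaling within a tissue and sex. Library totals were between 12719694 and 29286325 expected counts, and between 12719694 and 17696550 in testis. A value of 0 means not detected at this depth. The marker check went with the labels for most tissues: the skeletal muscle list summed to at least 326 CPM in every muscle library and to at most 40.1 CPM in every head kidney library. The leukocyte list summed to at least 1098 CPM in every head kidney library and to at most 24.6 CPM in muscle. One library stood apart from its label, the muscle labelled river male 6. Across genes its log2 levels correlated at 0.97 with the mean of the spawning males and at 0.81 with the mean of the other river males, against at least 0.96 with their own stage for the other 4 river males. Results of male muscle are given with and without it.

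In testis all 4 genes were low in ocean fish, at no more than 3.90 CPM, and at 9.00 CPM or more in every spawning fish. crlf1a had 0, 0.129, 0.0689, 0.132 and 0.161 CPM in ocean testes 1, 3, 6, 8 and 9. It had 5.09, 1.11, 0.703, 0.213 and 9.45 CPM in river testes 2 to 6, and 87.4, 106, 119, 157 and 126 CPM in spawning testes 6 to 10. The 5 spawning fish were close to each other, the river fish were spread widely, and no value of one stage reached into the next. The mean was 0.0983 ± 0.0644 CPM in ocean testis, 3.31 ± 3.94 CPM in river testis and 119 ± 26.0 CPM in spawning testis (SD, n = 5 each). As a ratio of pooled counts, spawning testis stood 1156-fold above ocean testis, with an exact binomial 95% interval of 587 to 2679 and only 8 counts in all ocean testes together. The ratio to river testis was 37.0, and river testis stood 31.3-fold above ocean testis, with an interval of 15.6 to 73.4. Such intervals and bounds cover counting error only.

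slc6a18, the amino acid carrier, had no count in any of the 5 ocean testes. River testes 2 to 6 had 0.129, 0, 0.0878, 0 and 0.185 CPM, which is 5 counts in all. Spawning testes 6 to 10 had 116, 72.9, 51.6, 109 and 92.7 CPM, a mean of 88.5 ± 26.5 CPM (SD, n = 5). The gene was thus undetected or at 1 or 2 counts in 10 libraries and well covered in the other 5, with 870 to 1787 counts each. Pooled spawning counts were at least 2273-fold above ocean testis, taking 3 counts over the ocean group as the floor, and 1124-fold above river testis (95% interval 481 to 3462).

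apof, the apolipoprotein, had 0, 0, 0, 0.0662 and 0.0538 CPM in ocean testes, and a single count, 0.0926 CPM, in river testis 6 with 0 in the other 4. Spawning testes 6 to 10 had 14.5, 9.00, 48.0, 44.3 and 21.3 CPM, a mean of 27.4 ± 17.7 CPM (SD, n = 5). Its spawning values differed 5.34-fold between the lowest and the highest fish, the widest spread of the 4 genes, and 1.91-fold for fzd8a and 2.25-fold for slc6a18. With 2 ocean counts and 1 river count the pooled ratios are loosely bounded, at 1060 (293 to 8759) against ocean testis and 1747 (313 to 69027) against river testis. River and ocean testis were both at the floor, and no difference between them was detectable.

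fzd8a, the Wnt receptor, was detected in every testis library. Ocean testes had 0.209, 1.54, 1.72, 3.90 and 0.753 CPM, river testes 2 to 6 had 39.2, 7.54, 15.02, 4.12 and 49.6 CPM, and spawning testes 6 to 10 had 515, 570, 673, 353 and 378 CPM. Here too no stage overlapped another, although the lowest river value was close to the highest ocean value. Mean levels were 1.63 ± 1.41 CPM in ocean, 23.1 ± 20.2 CPM in river and 498 ± 134 CPM in spawning testis (SD, n = 5 each). Spawning testis stood 314-fold above ocean testis (264 to 378) and 22.1-fold above river testis (20.9 to 23.2), and river testis stood 14.3-fold above ocean testis (11.9 to 17.3).

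**Figure D1:**
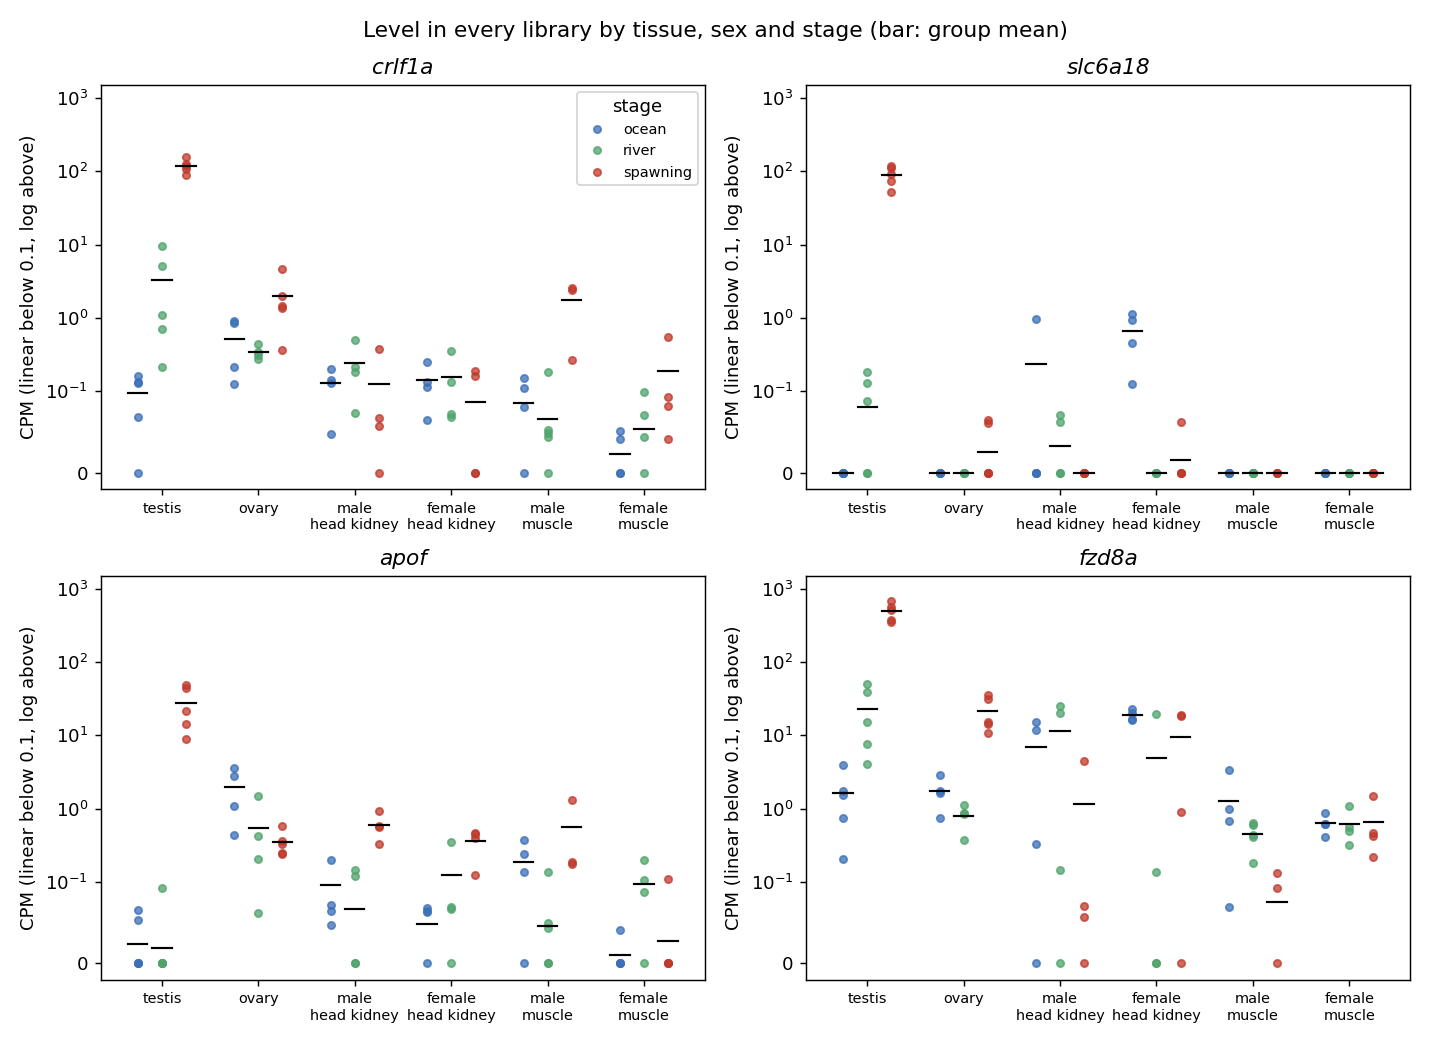
Level of each gene in each of the 76 libraries, in CPM on an axis that is linear below 0.1 and logarithmic above, for testis, ovary, head kidney and muscle with the stages in the order ocean, river, spawning; each point is 1 library and the bar is the group mean. For all 4 genes the 5 spawning testes lie above every other library, from 9.00 CPM for the lowest apof value to 673 CPM for the highest fzd8a value.

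The members differed in when they appeared. In the fitted model of the 15 testis libraries, with 28149 genes, the log2 difference of spawning minus ocean was 13.36 for slc6a18, 10.08 for crlf1a, 9.66 for apof and 8.26 for fzd8a, which are ranks 2, 33, 42 and 132 from the top. In the step from ocean to river the fitted difference was 4.90 for crlf1a and 3.83 for fzd8a. slc6a18 had 5 river counts and no ocean count, and apof had 1 river count and 2 ocean counts, so their fitted values for that step rest on almost no counts. In the step from river to spawning it was 10.15 for apof, 10.00 for slc6a18, 5.18 for crlf1a and 4.43 for fzd8a. The fitted values of slc6a18 and apof depend on the prior count because their ocean and river counts are near 0. Of all genes tested in testis 40.7% of genes were called higher and 43.2% lower in spawning than in ocean, 84.0% together, and 80.6% were called between spawning and river, 38.8% higher and 41.8% lower. Between river and ocean 39.2% were called, 25.8% higher and 13.4% lower, and with library size only the split was 5084 higher and 6563 lower. All 4 members had every spawning value above every ocean and river value, which is how they were picked.

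River testes 2 and 6 held the highest river values of crlf1a, fzd8a and slc6a18. For slc6a18 the counts were 2.05 and 2.06 there, 1.08 in testis 4 and 0 in testes 3 and 5, too few to rank these fish. The same 2 libraries held the highest river sums of Leydig markers (284 and 391 CPM, against 65.7 to 89.5 CPM in the other 3), of Sertoli markers (168 and 141 CPM, against 63.5 to 72.0 CPM) and of endothelial markers (75.7 and 86.5 CPM, against 26.0 to 30.6 CPM). Other lists went the same way: epithelium (27.4 and 26.1 CPM, against 7.74 to 15.02 CPM) and red cell markers (9.79 and 13.7 CPM, against 2.06 to 5.97 CPM). So did renal tubule (62.3 and 114 CPM, against 23.4 to 54.9 CPM) and skeletal muscle (11.2 and 14.9 CPM, against 7.46 to 9.84 CPM). The leukocyte, stroma, smooth muscle and liver sums did not set both libraries apart. Germ cell sums in river testes 2 and 6 were 8268 and 16178 CPM, against 9103 to 17343 CPM in the other 3, so only testis 2 lay outside their range. Without river testis 6 the fitted difference of crlf1a was 3.95 for river minus ocean and 6.10 for spawning minus river. The part of any cell type in the spread of the river values was not tested.

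Markers of the cell types of the testis moved with the same stages. The germ cell list, 12 of 15 genes found in the table, summed to 6147 to 13029 CPM in ocean testes, 8268 to 17343 CPM in river testes and 18.1 to 41.4 CPM in spawning testes. Among its genes piwil1 and sycp3 had no count in any of the 5 spawning testes. The spermatid and sperm list, 9 of 17 genes found, summed to 2204 to 3476 CPM in ocean testes, 4062 to 6793 CPM in river testes and 2.32 to 85.0 CPM in spawning testes. The working name of these genes calls the testis spent, whereas the labels say only spawning; the libraries held little germ cell RNA.

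For the Leydig, Sertoli and endothelial lists the spawning sums did not overlap the others either, and every one lay above them. The Leydig list, 5 of 9 genes found, summed to 21.9 to 60.9 CPM in ocean, 65.7 to 391 CPM in river and 15389 to 41523 CPM in spawning testes, led there by insl3 at a mean of 20179 CPM. The Sertoli list, 5 of 11 found, summed to 53.9 to 65.0 CPM in ocean, 63.5 to 168 CPM in river and 568.2 to 995 CPM in spawning testes. Of its genes, mean inhbaa went from 3.46 CPM in river to 2.49 CPM in spawning testes, while amh, dmrt1, fshr and wt1b rose. The endothelial list, 4 of 10 found, summed to 10.2 to 16.0 CPM in ocean, 26.0 to 86.5 CPM in river and 300.2 to 474 CPM in spawning testes. The epithelium, skeletal muscle and renal tubule lists did not overlap between river and spawning either. The epithelium list summed to 3.83 to 11.8 CPM in ocean, 7.74 to 27.4 CPM in river and 58.9 to 140 CPM in spawning testes. Most of its spawning sum was krt18b, at a mean of 71.3 CPM, and epcam and cldn7a rose too. From river to spawning mean ppl fell from 1.35 to 0.480 CPM and agr2 from 1.27 to 0.136 CPM, and grhl2b had no count at either stage. The skeletal muscle list summed to 2.74 to 10.9, 7.46 to 14.9 and 93.4 to 214 CPM at these stages. It was led at spawning by neb at a mean of 106 CPM and actc1a at 42.1 CPM. The other genes found, myl1, mylpfb and tnnt3a, fell from river to spawning. Their means went from 1.78, 1.13 and 0.242 CPM to 0.0260, 0.0490 and 0.0486 CPM. The stroma, smooth muscle and leukocyte lists overlapped between river and spawning. The stroma list summed to 95.4 to 252 CPM in ocean, 235 to 691 CPM in river and 269.8 to 2774 CPM in spawning testes, and the smooth muscle list to 27.2 to 59.5, 61.4 to 262 and 163 to 3082 CPM at the same stages. Spawning testis 10 held the highest value of both. The leukocyte list summed to 5.98 to 14.3 CPM in ocean, 39.4 to 67.7 CPM in river and 27.6 to 67.2 CPM in spawning testes. In these bulk samples fewer cells of a type and less RNA per cell cannot be told apart.

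Set against the Leydig sum of the same library, fzd8a was 0.952 to 6.41% of it in ocean testes, 4.92 to 16.8% in river testes and 1.37 to 2.46% in spawning testes. On that scale fzd8a was lower at spawning than in any river fish. The scale is set mostly by 3 of the 5 genes. From river to spawning mean insl3 went from 66.1 to 20179 CPM, star from 54.8 to 4025 CPM and hsd3b1 from 39.0 to 2421 CPM. The other 2 rose less, lhcgr from 17.1 to 210 CPM and nr5a1b from 5.88 to 119 CPM. Mean fzd8a went from 23.1 to 498 CPM. crlf1a was 0.255 to 0.818% of the Leydig sum at spawning and 0.255 to 2.42% in the river, so these ranges overlapped. slc6a18 was 0% of the Leydig sum in ocean testes, at most 0.0981% in river testes and 0.175 to 0.602% in spawning testes, with no overlap. apof was at most 0.191% in ocean, at most 0.0237% in river and 0.0217 to 0.208% in spawning testes, which overlapped. Set against the Sertoli sum, and likewise against the endothelial sum, all 4 genes were higher in every spawning testis than in any other. fzd8a was 0.387 to 6.01% of the Sertoli sum in ocean testes, 6.09 to 35.1% in river testes and 51.7 to 96.2% in spawning testes. slc6a18 was 7.37 to 17.7% of the Sertoli sum in spawning testes and at most 0.138% in river testes. Which cells carry the 4 transcripts was not tested.

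**Figure D2:**
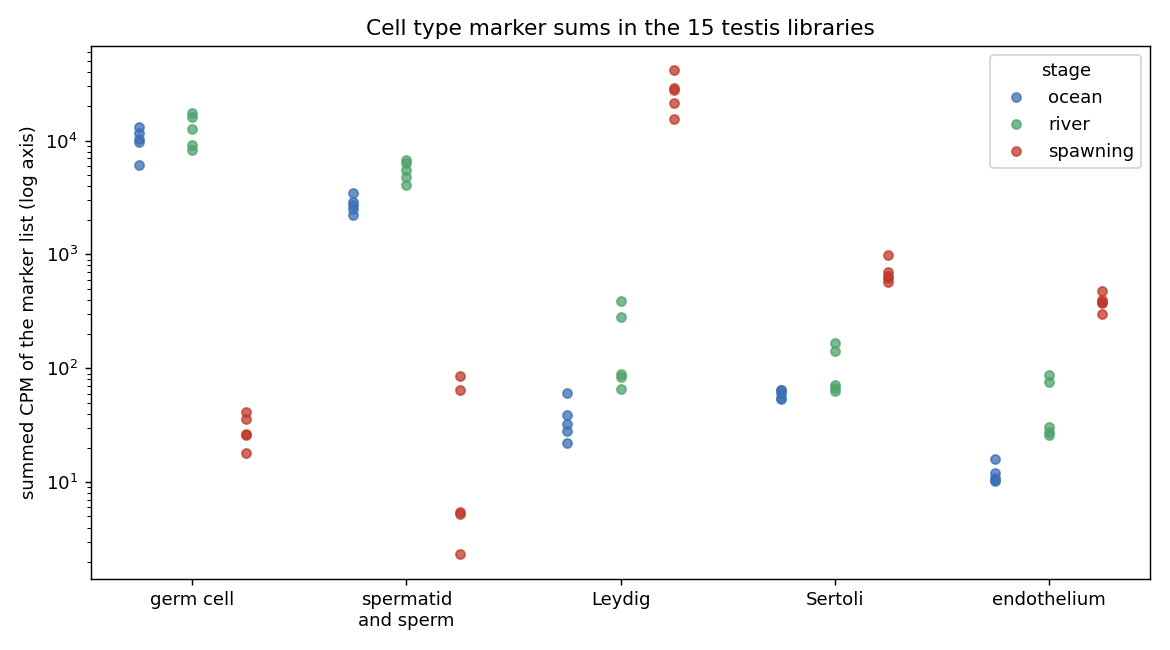
Summed CPM of 5 marker lists in the 15 testis libraries on a log axis, with the stages in the order ocean, river, spawning; each point is 1 library. Germ cell sums reach at most 41.4 CPM in spawning testes and at least 6147 CPM in the others, while Leydig sums are at least 15389 CPM in spawning testes and at most 391 CPM in the others.

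Kidney and liver markers were read beside slc6a18 and apof, since these are the organs the mammalian genes are known from. The renal tubule list, 9 of 18 genes found, summed to 15.5 to 60.1 CPM in ocean, 23.4 to 114 CPM in river and 433 to 697 CPM in spawning testes. Nearly all of the spawning sum was slc34a1a, a phosphate carrier, at a mean of 550 CPM in spawning testis, and lrp2a at 48.9 CPM. The tubule transporters slc5a2 and slc12a3 had no count in any spawning testis. The liver list, 7 of 18 genes found, summed to 2.20 to 12.7 CPM in ocean, 4.29 to 18.04 CPM in river and 15.5 to 42.6 CPM in spawning testes. Most of the spawning sum was tfa, transferrin, at a mean of 26.3 CPM in spawning testis. The other listed liver genes found were each at most 0.487 CPM on average there, among them ahsg1 at 0.487 CPM, serpind1 at 0.305 CPM, fetub at 0.267 CPM and fga at 0.0122 CPM, and ttr had no count at any stage.

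In ovary, fzd8a was clearly higher at spawning, crlf1a was higher than in river fish only, apof was lower than in ocean fish, and slc6a18 was almost undetected. Of the 4 genes 3 passed the filter on low counts, slc6a18 being left out with 1 count in each of 2 spawning ovaries and none in the other 11. fzd8a had 2.86, 1.64, 1.73 and 0.748 CPM in ocean ovaries, 0.375, 0.868, 1.11 and 0.835 CPM in river ovaries, and 14.4, 15.3, 31.6, 35.4 and 10.7 CPM in spawning ovaries. The lowest spawning ovary was above the highest of the other 8. In edgeR's quasi-likelihood test, with Benjamini-Hochberg adjustment over all genes of the comparison, the log2 change was 3.62 ± 0.48 (SE) for spawning minus ocean, with an adjusted p of 0.000118. For spawning minus river it was 4.74 ± 0.52, with an adjusted p of 2.70e-05. Of all genes tested in ovary 36.3% were called for spawning minus ocean and 37.9% for spawning minus river, 16.3% and 16.8% being higher and 20.0% and 21.0% lower. With library size only the splits were 6148 higher and 4238 lower, and 6201 higher and 4422 lower.

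crlf1a had 0.839, 0.213, 0.897 and 0.125 CPM in ocean ovaries, 0.437, 0.316, 0.348 and 0.278 CPM in river ovaries, and 4.68, 1.37, 0.360, 1.44 and 2.00 CPM in spawning ovaries. The spawning values other than that of ovary 3 lay above every ocean and river value, 4 of 5 in all. It was higher in spawning than in river ovary by 2.48 ± 0.74 on the log2 scale (edgeR adjusted p = 0.0183). For spawning minus ocean the change of 1.91 ± 0.71 missed the threshold with an edgeR adjusted p of 0.0513, and it passed when spawning ovary 3 was left out (2.22, edgeR adjusted p = 0.0137), under 2 other scalings and in DESeq2 (adjusted p = 0.0208).

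apof ran the other way in ovary. It had 2.80, 3.63, 1.08 and 0.437 CPM in ocean ovaries, 0.0624, 1.499, 0.209 and 0.418 CPM in river ovaries, and 0.325, 0.358, 0.575, 0.250 and 0.242 CPM in spawning ovaries. Of the 4 ocean values 3 were above every spawning value and the lowest was inside their range. The river values, 0.0624 to 1.499 CPM, overlapped both stages but stayed below the ocean values of 2.80 and 3.63 CPM. It was lower at spawning than in the ocean by a log2 change of -2.48 ± 0.78 (edgeR adjusted p = 0.0245). The call was lost when ocean ovary 2 or 4, or spawning ovary 4 or 5, was left out, with edgeR adjusted p-values from 0.0535 to 0.0871. For spawning minus river the change was -0.62 ± 0.80 (edgeR adjusted p = 0.576). None of the 3 genes was called for river minus ocean, a comparison in which edgeR called 0% of all genes with 2338 at an unadjusted p under 0.05, and DESeq2 called 88 genes higher and 61 lower. Unadjusted p was 0.0408 for apof and 0.0442 for fzd8a.

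Marker sums moved in ovary as well. The Leydig list, whose genes also mark the steroid-making follicle cells, summed to 55.3 to 166 CPM in ocean, 199.6 to 308 CPM in river and 1529 to 3097 CPM in spawning ovaries. The Sertoli list, shared in part with granulosa cells, summed to 28.4 to 83.3 CPM in ocean, 108 to 141 CPM in river and 236 to 759 CPM in spawning ovaries. The stroma list summed to 24007 to 53194 CPM in ocean, 20033 to 29876 CPM in river and 1006 to 3392 CPM in spawning ovaries. Their part in the values of fzd8a, crlf1a and apof was not tested. Pooled spawning testis counts stood above spawning ovary by a ratio of 23.8 for fzd8a, 59.6 for crlf1a, 78.9 for apof and 3427 (948 to 28304) for slc6a18, with each tissue scaled on its own.

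Muscle held little of any of the 4 genes. fzd8a was the 1 member of 4 that passed the filter, and slc6a18 had no count in any of the 24 muscle libraries. In males fzd8a had 3.39, 0.672, 0.0689 and 0.993 CPM in ocean muscle, 0.592, 0.439, 0.632, 0.414 and 0.184 CPM in river muscle, and 0, 0.0924 and 0.133 CPM in spawning muscle. The 3 spawning males had 0 to 3 counts and lay below every river male and below 3 of the 4 ocean males. For spawning minus ocean fzd8a was lower by a log2 change of -4.00 ± 1.14 (edgeR adjusted p = 0.0160), in a comparison in which 40.2% of genes were called, 20.2% higher and 20.0% lower. The call was lost without ocean male 1 (-2.82, edgeR adjusted p = 0.0572) or spawning male 8 (-4.16, edgeR adjusted p = 0.0512). With library size in place of TMM scaling the change was -2.89, while the median of all genes moved to 1.18 and the split of calls to 10894 higher and 1499 lower.

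For spawning minus river in male muscle the change of fzd8a was -2.52 ± 1.09 (edgeR adjusted p = 0.101), where 23.3% of genes were called. For river minus ocean it was -1.49 ± 0.81 (edgeR adjusted p = 0.437), where 0.145% were called, and without the library labelled river male 6 it was -1.29 ± 0.82 (edgeR adjusted p = 0.4927). In that comparison library size only gave 6260 genes higher and 64 lower, and DESeq2 gave 357 and 390. Without that library spawning minus river was -2.71 (edgeR adjusted p = 0.0528) with 11077 genes called, against 5127 with it, and spawning minus ocean stayed at -4.00 (edgeR adjusted p = 0.00867). In female muscle the 12 libraries had 0.219 to 1.48 CPM of fzd8a, all 3 stages overlapped, and spawning minus ocean was 0.04 ± 0.58 (edgeR adjusted p = 0.955) among 50.5% of genes called. The changes for spawning minus river (0.09 ± 0.57) and river minus ocean (-0.04 ± 0.58) were not called either, with 48.3% and 0.0415% of genes called. The difference between the sexes in the change from ocean to spawning, male minus female, was -4.06 ± 1.24 and did not pass (edgeR adjusted p = 0.201), in a test that called 0.0506% of genes. Without river male 6 it was -4.06 ± 1.22 (edgeR adjusted p = 0.118).

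crlf1a had too few counts for the filter in muscle but was uneven in males. It had 1, 2, 0 and 1 counts in ocean males, 1, 1, 1, 0 and 4 counts in river males, and 62.2, 55 and 6 counts in spawning males. All 3 spawning males were above every other male, and the 4 counts in the river belonged to the library labelled river male 6. When edgeR was run with no filter, crlf1a was higher by 4.34 ± 0.99 on the log2 scale for spawning minus ocean (adjusted p = 0.00681) and by 4.54 ± 0.87 for spawning minus river (adjusted p = 0.00577). In that unfiltered fit 12.1% and 4.32% of genes were called higher in the same 2 comparisons. apof had 0 to 5 counts in ocean males, 0 to 3 in river males and 34, 4 and 4 in spawning males, and passed without the filter for spawning minus river (3.37 ± 1.05, edgeR adjusted p = 0.0474), with 1 library holding most of the counts. For spawning minus ocean apof was not called (1.55 ± 1.06, edgeR adjusted p = 0.312). Without river male 6, the unfiltered spawning minus river change was 5.33 ± 0.92 for crlf1a (edgeR adjusted p = 0.000219) and 4.20 ± 1.15 for apof (edgeR adjusted p = 0.00897). For spawning minus ocean it was 4.35 ± 0.90 for crlf1a (edgeR adjusted p = 0.00105) and 1.54 ± 0.99 for apof (edgeR adjusted p = 0.263). That fit called many more genes in either direction for spawning minus river, 11179 of 35229 against 4401 of 35382 with river male 6. For spawning minus ocean it called 11075, against 8297. In females crlf1a had at most 2 counts in 11 of 12 muscle libraries and 10 counts in spawning female 5.

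In head kidney, fzd8a was either near 0 or at several CPM, at every stage. Males had 11.8, 0.331, 15.3 and 0 CPM in ocean fish 1, 6, 8 and 9, 25.1, 0.146, 0 and 20.2 CPM in river fish 2, 3, 5 and 6, and 0, 0.0702, 4.48 and 0.0576 CPM in spawning fish 6, 7, 9 and 10. Females had 16.0, 22.6, 20.1 and 16.6 CPM in ocean fish, 19.7, 0, 0.138 and 0 CPM in river fish 1, 7, 8 and 9, and 18.3, 18.9, 0.906 and 0 CPM in spawning fish. The 4 ocean females were all high, and each of the other 5 groups held libraries of both kinds. None of the 6 stage comparisons called fzd8a in edgeR or in DESeq2, with edgeR adjusted p-values from 0.359 to 0.897 and unadjusted p-values of at least 0.152, where in males 6.76%, 9.22% and 0% of all genes were called for spawning minus ocean, spawning minus river and river minus ocean, and in females 7.92%, 8.46% and 0.117%. The male minus female difference of the spawning minus ocean change was -1.67 ± 2.76 (edgeR adjusted p = 1.00), in a test where edgeR called 0% of genes, 1314 genes had an unadjusted p under 0.05 and DESeq2 called 28 higher and 68 lower.

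The split ran with the renal tubule markers of the same libraries, and their part in it was not tested. The covariate fit given here tests the stages only. As a ratio of neighbouring values, the widest gap of the tubule list lay between 29.4 and 159 CPM. The 12 libraries above it had 4.48 to 25.1 CPM of fzd8a, and the 12 below it had 0 to 0.906 CPM. slc6a18 behaved alike at its low level, with counts in 8 of the 12 libraries above the gap, up to 20.4 counts, and none in the 12 below. With the tubule score as a covariate, a fit chosen once the values were known, spawning minus ocean of fzd8a was -0.42 ± 1.06 in males and -0.02 ± 0.93 in females, against -2.57 ± 2.09 and -0.98 ± 1.70 without it. Without river female 1, the river female with tubule markers, fzd8a passed for spawning minus river in females (7.46, edgeR adjusted p = 0.0450).

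**Figure D3:**
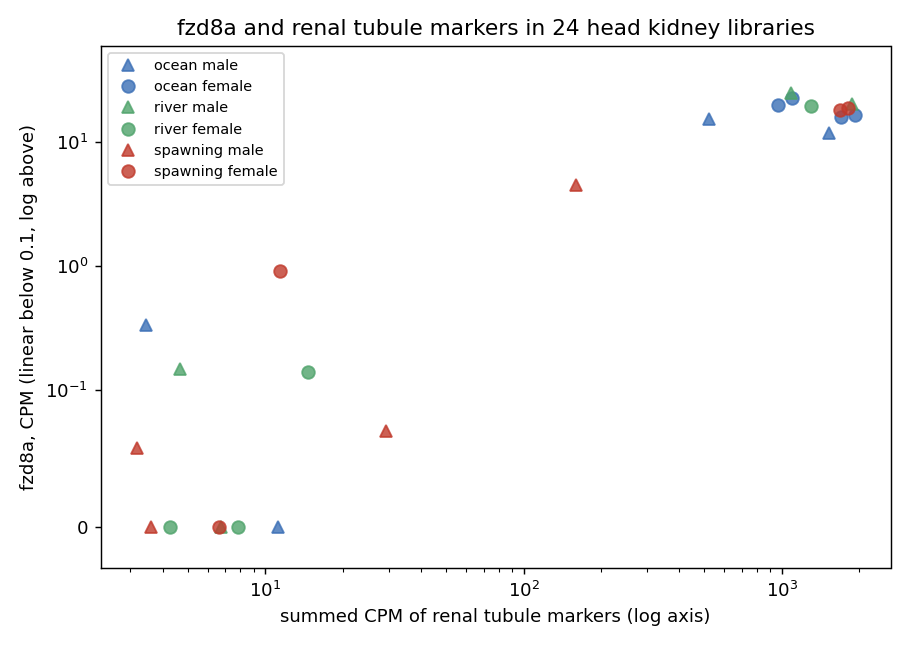
fzd8a level in CPM (linear below 0.1, log above) against the summed CPM of 9 renal tubule markers (log axis) in 24 head kidney libraries, with colour for stage and shape for sex; each point is 1 library. The 12 libraries with a tubule sum of at least 159 CPM all hold at least 4.48 CPM of fzd8a, and the 12 with at most 29.4 CPM hold at most 0.906 CPM.

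slc6a18 had 1.14, 0.127, 0.451 and 0.947 CPM in the 4 ocean female head kidneys, against 0.0628 CPM in 1 of 4 spawning females and 0 in the others. It did not pass the filter, and without it the log2 change for spawning minus ocean was -4.75 ± 1.16 (edgeR adjusted p = 0.0544). All 4 ocean females were above the gap in tubule markers, as were 2 of the 4 spawning females. apof had 1 to 3 counts in ocean male head kidneys, 0 to 2 in river males and 5 to 15 in spawning males, so the spawning males did not overlap the rest. The liver list summed to 5.83 to 134 CPM in ocean, 13.8 to 20.9 CPM in river and 319 to 430 CPM in spawning male head kidneys. In females it summed to 8.79 to 11.7 CPM in ocean, 11.1 to 20.1 CPM in river and 28.9 to 178 CPM in spawning head kidneys, and its part in the apof values was not tested. apof too failed the filter, and without the filter its change for spawning minus ocean was 2.59 ± 0.93 in males (edgeR adjusted p = 0.153) and 2.72 ± 1.01 in females (edgeR adjusted p = 0.155). crlf1a had 0 to 8 counts in the 24 head kidney libraries, with all stages overlapping.

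Over the 18 groups of tissue, sex and stage each gene had its highest mean in spawning testis, and the next group never overlapped it. For fzd8a the next were river testis at 23.1 ± 20.2 CPM, spawning ovary at 21.5 ± 11.2 CPM and ocean female head kidney at 18.8 ± 3.09 CPM, which overlapped each other, and the lowest was spawning male muscle at 0.0753 CPM. With library size only, spawning ovary and ocean female head kidney stood above river testis. For crlf1a river testis was followed by spawning ovary at 1.97 ± 1.63 CPM and spawning male muscle at 1.74 ± 1.27 CPM, again overlapping, and with library size only these last groups changed places. The second place of apof was ocean ovary at 1.98 ± 1.48 CPM, and that of slc6a18 was ocean female head kidney at 0.665 ± 0.461 CPM. Of all counts of a gene in the 76 libraries, the 5 spawning testes held 98.9% for slc6a18, 93.7% for crlf1a, 87.0% for apof and 85.2% for fzd8a.

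Other genes of cytokine signalling, slc6 transport, lipoprotein handling and Wnt signalling were followed from lists that leave out the members. Only 53 of the 193 listed names occur in the table, because most of its genes carry LOC numbers, so the counts cover part of each system. In testis 28 could be tested, and 18 were higher and 7 lower for spawning minus ocean. In either direction that is 89.3% called against 84.0% of all genes, which is near the background. By direction, the 18 higher and 7 lower of 28 stand beside 40.7% higher and 43.2% lower of all genes. In ovary 10 were higher and 6 lower of 35 tested, 45.7% against 36.3% of all genes, 16.3% being higher and 20.0% lower.

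Of the cytokine genes 4 of 5 tested were higher and 1 lower in spawning than in ocean testis, where 84.0% of all genes were called, 40.7% higher and 43.2% lower. The median log2 change of the list was 3.83, against -0.12 for all genes. lifra, a Lif receptor gene, had 277 ± 28.6 CPM in spawning testis and 17.6 ± 2.30 CPM in ocean testis (SD, n = 5 each), a log2 change of 3.97 ± 0.30 (edgeR adjusted p = 7.52e-09). il6r, an interleukin receptor gene, changed by 7.06 ± 0.58, while the kinase gene jak2b was lower by a log2 change of -0.54 ± 0.10. Both lifra (0.76 ± 0.17, edgeR adjusted p = 0.00423) and il6r (1.95 ± 0.39, edgeR adjusted p = 0.00203) were higher in spawning than in ocean ovary too.

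Of the slc6 carriers and their partners 4 of 6 were higher and 2 lower in spawning than in ocean testis, beside 40.7% higher and 43.2% lower of all genes, with a median of 4.15. cltrn, which encodes collectrin, the protein that carries Slc6a18 to the surface in mammals, had 191, 110.0, 185, 310 and 112 CPM in spawning testes 6 to 10, and 0.132 to 0.646 CPM in ocean testes. No spawning value overlapped, and the log2 change was 8.74 ± 0.50 (edgeR adjusted p = 3.25e-10). In ovary cltrn had 95.5 ± 30.8 CPM at spawning (SD, n = 5) and 4.01 ± 3.99 CPM in ocean fish (SD, n = 4), a log2 change of 4.56 ± 0.65 (edgeR adjusted p = 0.000198), although slc6a18 itself was almost absent there. slc6a8, the creatine transporter, had 304 ± 149 CPM in spawning testis and 0.0709 ± 0.101 CPM in ocean testis, a log2 change of 11.82 ± 0.67 (edgeR adjusted p = 2.73e-10). slc6a14, a carrier of neutral and cationic amino acids, was lower by a log2 change of -3.42 ± 0.83, and slc6a15 by -2.37 ± 0.43.

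Of the lipid genes 3 of 5 were higher and 2 lower in testis, with a median of 0.38, which is near the 40.7% higher and 43.2% lower of all genes. apoa4a, an apolipoprotein gene, had 71.3 ± 45.1 CPM in spawning testis and 2.08 ± 0.93 CPM in ocean testis, a log2 change of 5.10 ± 0.47 (edgeR adjusted p = 6.54e-08). lcat, which encodes the enzyme that esterifies cholesterol in plasma lipoproteins, had 0.0487 ± 0.109 CPM in spawning testis and 5.74 ± 1.37 CPM in ocean testis, a log2 change of -6.62 ± 0.62 (edgeR adjusted p = 7.19e-08). soat2, an enzyme of cholesterol ester storage, was higher in spawning testis, at 4.37 ± 4.11 CPM, against 0 in all ocean testes (edgeR adjusted p = 0.000208). apool, named for likeness to apolipoprotein O, was lower by a log2 change of -1.03 ± 0.18. apoa4a did not differ by this test in ovary (-0.48 ± 0.28, edgeR adjusted p = 0.194).

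Around fzd8a, both Wnt ligands tested were higher in spawning than in ocean testis, as were 40.7% of all genes. wnt5a had 8.64 ± 3.35 CPM in spawning testis and 0.418 ± 0.236 CPM in ocean testis, a log2 change of 4.32 ± 0.71 (edgeR adjusted p = 3.41e-05). Of 3 other receptors ror2, a receptor for Wnt5a, was higher by 3.44 ± 0.35 and ryk was lower by a log2 change of -1.99 ± 0.18. In ovary both wnt5a (-1.06 ± 0.24, edgeR adjusted p = 0.00390) and ror2 (-0.71 ± 0.20, edgeR adjusted p = 0.0136) were lower at spawning, while fzd8a was higher there. A further list held Wnt inhibitors and feedback genes together with core pathway genes such as ctnnb1. Of its 7 genes tested 4 were higher and 1 lower in spawning testis, fewer called than the 84.0% of all genes. Of all genes 40.7% were higher and 43.2% lower. They include dkk3b (4.68 ± 0.55) and znrf3, which encodes a ligase that removes Frizzled from the membrane (3.52 ± 0.50), while ctnnb1, the beta-catenin gene, was lower by a log2 change of -0.84 ± 0.16.

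**Figure D4:**
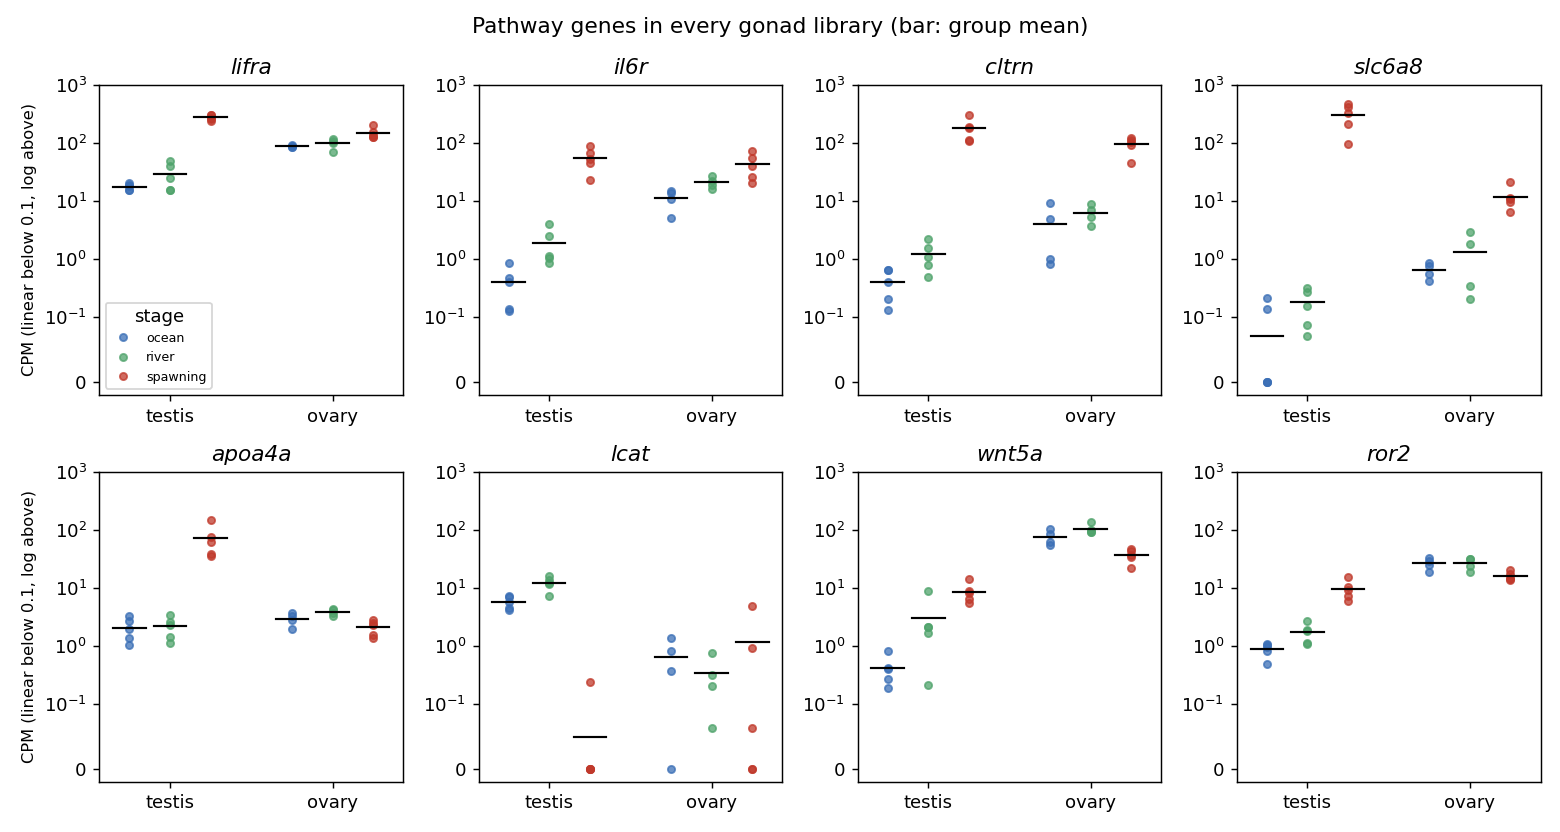
Levels of 8 of the listed genes in each gonad library, in CPM on an axis that is linear below 0.1 and logarithmic above, with the stages in the order ocean, river, spawning within testis and ovary; each point is 1 library and the bar is the group mean. cltrn is higher at spawning in both gonads, with means of 181 CPM in testis and 95.5 CPM in ovary, while lcat averages 0.0487 CPM in spawning testis. The 8 genes were picked by hand, and only lcat of them is lower in spawning than in ocean testis. Of the 28 listed genes tested there, 18 were higher and 7 lower.

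The named genes whose mean levels over the 18 groups were most like those of a member are given as a description. They were ranked by Pearson's r of log2(CPM + 1) over 18 group means among 7225 genes with a symbol and at least 1 CPM in some group, and the ranking rests largely on the spawning testis group. For crlf1a these were slc35g1 (r = 0.97), vtnb, slc13a2, camk2n1 and fgf17. For slc6a18 they were fgf17 (r = 0.99), zgc:92380, slc35g1, vtnb and rxfp3.3b, and for apof hapln1b (r = 0.98), fgf17, zgc:92380, dclk1a and rnd1b. fzd8a had another set, mcoln2 (r = 0.96), f5, oatx, nim1ka and tex30. f5, the gene of coagulation factor V, reached a mean of 1155 CPM in spawning testis and 152 CPM in spawning ovary. Between the members r was highest for crlf1a with slc6a18 (0.94) and lowest for apof with fzd8a (0.72). The members were picked for high spawning testis values, so high r between them follows largely from that choice.

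The nearest counted protein-coding genes on either side of the 4 members were looked up in the RefSeq annotation of the assembly OgorEven_v1.0. It was used for gene order only, and any other gene between was skipped. These neighbours were chosen after their values were seen. In testis keap1a, the neighbour of crlf1a, had 68.1 ± 6.39 CPM at spawning and 1.203 ± 0.377 CPM in ocean fish (SD, n = 5 each), a log2 change of 5.81 ± 0.45 (edgeR adjusted p = 9.49e-09). LOC124043132, beside slc6a18, had 131 ± 40.8 CPM at spawning and 0.539 ± 0.704 CPM in the ocean, a log2 change of 7.92 ± 0.62 (edgeR adjusted p = 1.05e-08). The gene on the other side of slc6a18, LOC124042651, changed by -0.19 ± 0.52 (edgeR adjusted p = 0.735). Beside apof, gpr84 was higher by 4.67 ± 1.05 (edgeR adjusted p = 0.000650), while LOC124031284 changed by 0.20 ± 0.12 (edgeR adjusted p = 0.124). Beside fzd8a, klf6a was higher by 1.98 ± 0.36 (edgeR adjusted p = 8.89e-05) and LOC123990193 changed by -0.58 ± 0.35 (edgeR adjusted p = 0.136). LOC124010706, beside crlf1a, had too few counts to be tested. Of the 7 neighbours tested 4 were called higher, in a comparison in which 40.7% of all genes were.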

How the data were processed

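Per the labels' protocols, tissue was kept in RNALater, RNA was isolated with trizol and libraries were made by poly(A) enrichment. The authors deposited expected counts per gene in 1 table for each sex; per the submitters' processing notes the tools included Salmon (version 1.8.0), R (version 4.3.3) and Trim Galore (version 0.6.4). Their roles, the genome build and the annotation are not given in the sources used here. Expected counts split reads among similar genes, so near-identical copies are uncertain, and 36.4% of the deposited values were not whole. Rounding to whole numbers preceded every test and every CPM value. Of 40756 gene names 40754 matched the RefSeq table.

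Each tissue and sex was fitted with its 3 stages together in edgeR 4.0.16 (quasi-likelihood test, TMM scaling, filterByExpr) under R 4.3.3, with limma 3.58.1 loaded, and DESeq2 1.42.0 as an alternative. A call is a two-sided Benjamini-Hochberg adjusted p under 0.05 over all genes of the comparison. SE is the log2 change divided by the square root of F. The steps were checked on simulated counts. Named list genes were, per list and testis comparison, up to 2 called genes in each direction with the largest log2 change and an average log2 CPM of at least 0. The members and gene lists were chosen with earlier results of these data known. Among 125 pairs of libraries of a group none were copies. Some background and 1 marker gene are not reported here.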

Additional observations from a re-analysis of the deposited data

Results flagged for a closer look

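Among 29 combinations of a gene and a group that could be tested, which reuse the same libraries, 4 held a library far from the others. A group was tested only where its highest library passed a minimum count. In each of these 4 groups the flagged library was that highest one, and the others held few or no counts. No chance rate is therefore given. crlf1a was at 0.548 CPM in the muscle of spawning female 5, the highest of its group. fzd8a stood out in the head kidney of river female 1, at 19.7 CPM, and of spawning male 9, at 4.48 CPM. slc6a18 stood out in the head kidney of ocean male 1, at 0.955 CPM. These 3 head kidneys were also above the gap in renal tubule markers, whose part was not tested.

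In 2 cases the stages did not overlap in a tissue, in the opposite order to a gonad. The testis side follows from how the genes were picked. The mean difference of slc6a18 for spawning minus ocean was -0.650 CPM in female head kidney, while testis was higher. In that head kidney slc6a18 had at most 20.4 counts per library and was not called without the filter (edgeR adjusted p = 0.0544). The mean difference of fzd8a for spawning minus river was -0.377 CPM in male muscle, while testis and ovary were higher. In that muscle fzd8a had at most 12 counts per library at these stages and was not called (edgeR adjusted p = 0.101). Neither difference between tissues was tested.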

How the results depend on the processing

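Of the recomputed values of the members and list counts, 838 kept their direction and side of the threshold or stayed within the spread, 10 lost a call, 5 gained one, 18 changed sign and 31 moved otherwise. Fish numbers are shared between stages, but the same number can stand for fish of different sex at different stages. The number was therefore not treated as a pairing. Over 27 pairs of same-numbered libraries the correlation of their deviations was -0.61 to 0.75 and above 0.1 in 8. A fit with the number as a replicate block, for which the labels give no ground, is listed all the same. Its ovary changes were -2.18 for apof (spawning minus ocean), and 2.26 for crlf1a and 4.23 for fzd8a (spawning minus river), none called. For spawning minus ocean fzd8a was -1.80 in male muscle, where the call was lost (edgeR adjusted p = 0.338), and 2.44 in male head kidney, where it was not called either way. In female muscle it was -0.59, -0.93 and 0.33 for spawning minus ocean, spawning minus river and river minus ocean. Fitted testis changes under the block were 7.27 (apof), 3.49 (crlf1a) and 9.32 (slc6a18) for spawning minus river, and 2.20 (apof, on 1 river and 2 ocean counts) and 5.96 (crlf1a) for river minus ocean. Listed genes called under the block were 2 higher and 0 lower in testis (river minus ocean, against 9 and 2), 3 lower in ovary (spawning minus ocean, against 6), and 2 higher and 0 lower in ovary (spawning minus river, against 9 and 10).

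For crlf1a in ovary, spawning minus ocean passed with RLE scaling (1.95), library size only (2.08) and DESeq2 (1.97). fzd8a in female muscle was -0.023 for spawning minus ocean when only those stages were fitted, and 0.48 for river minus ocean with library size only. With the tubule covariate fzd8a in male head kidney was -0.38 for river minus ocean. Listed genes lower in testis for spawning minus river numbered 10 without a filter, against 6, and those higher for river minus ocean numbered 5 with library size only. The cause of these shifts was not tested.

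With 1 library left out at a time, ovary changes ranged from -2.81 to -1.95 (apof) and 1.39 to 2.31 (crlf1a) for spawning minus ocean, and from -0.999 to 0.64 (apof) for spawning minus river. fzd8a ranged from -0.013 to 1.48 in male head kidney (river minus ocean), 0.38 to 7.46 in female head kidney (spawning minus river) and -4.65 to -2.82 in male muscle (spawning minus ocean). In female muscle it ranged from -0.75 to 0.32, -0.71 to 0.51 and -0.48 to 0.19 for spawning minus ocean, spawning minus river and river minus ocean. Fitted testis changes ranged from 9.85 to 11.70 (apof), 4.98 to 6.10 (crlf1a) and 9.72 to 10.50 (slc6a18) for spawning minus river, and from -2.06 to -0.0084 (apof) and 3.95 to 5.15 (crlf1a) for river minus ocean. Listed genes called in testis for river minus ocean ranged from 3 to 9 higher and 1 to 4 lower, and in ovary for spawning minus river from 4 to 10 lower. Low counts limit crlf1a, apof and slc6a18 outside spawning testis.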
